A study of Mus musculus with 2 samples.

Results

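Mature migratory Ccr7 dendritic cells were examined among cells recovered from scaffolds that had filled a skull defect in mice for 1 week. The cells were chosen from raw counts of unique molecular identifiers (UMIs, each standing for 1 captured RNA molecule) among barcodes with at least 1000 UMIs and under 20% mitochondrial UMIs. A member had at least 2 UMIs of Ccr7 and at least 2 of Fscn1 and Ccl22 together. It had at most 1 UMI of Cd3d, Cd3e and Cd3g together, at most 1 of Siglech, at most 10 of C1qa, C1qb and C1qc together, and under 0.5% of its UMIs from S100a8 and S100a9. Of 14193 cells in all, 243 were members. Both groups were female Balb/c mice aged 6 weeks with a circular cranial defect of 3.5 mm and a scaffold that carried no cells, named Gel100 in the one group and Gel50_CS50 in the other. The cells of 5 mice were pooled per scaffold before sorting of viable cells and droplet capture with the 10x 3' kit. Each scaffold is therefore 1 library from 1 pool, the mice of a pool were not told apart, and no unimplanted or unfilled control was used here. With 1 library per scaffold there is no test, and every interval below is a 95% interval that covers counting error only.

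Dendritic cells take up antigen in tissue and present it to T cells. On maturation they switch on the chemokine receptor Ccr7, which responds to Ccl19 and Ccl21 and guides them through lymphatic vessels to lymph nodes, and the actin-bundling protein fascin (Fscn1). They also raise co-stimulatory molecules and T cell attracting chemokines, and lower the machinery of antigen uptake. Conventional dendritic cells come as cDC1, which cross-present antigen on MHC class I, and cDC2, which present mainly on MHC class II. Mature cells of either origin share a common program that includes checkpoint ligands such as Cd274 (PD-L1).

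Mature cells made up 126 of 6899 cells (1.83%, exact Clopper-Pearson interval 1.52 to 2.17) in the Gel100 library and 117 of 7294 (1.604%, 1.33 to 1.92) in the Gel50_CS50 library. The difference was −0.22 percentage points, with a Newcombe interval of −0.66 to 0.21 that spans 0. A comparison class was formed of conventional dendritic cells that passed the same filters and exclusions, had no Ccr7 UMI and carried either at least 2 UMIs of Xcr1 and Clec9a (cDC1 side), or Cd209a and Flt3 with at most 1 UMI of Xcr1 and Clec9a (cDC2 side). It held 109 cells in Gel100, 85 on the cDC1 and 24 on the cDC2 side, and 108 cells in Gel50_CS50, 58 and 50. Mature cells were thus 53.6% (47.0 to 60.1) of 235 and 52.0% (45.3 to 58.7) of 225 dendritic cells chosen by these rules. Median depth was 15501 and 19362 UMIs per mature cell, against 24787 and 21911 in the comparison class. The mature cells summed to 2066770 and 2534978 UMIs, so 3 UMIs correspond to 1.45 and 1.18 CPM (a gene's UMIs per 1000000 UMIs of the summed class, the unit of all levels below). No barcode was shared between the mature cells of the libraries, and 24 barcodes were shared between the libraries in all.

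The rule's own genes are given as a description. Ccr7 ranged from 2 to 92 UMIs per cell in Gel100, with a median of 25.5, and from 2 to 124 with a median of 30 in Gel50_CS50. Its limit fell in a sparse range: 2 Gel100 cells and 1 Gel50_CS50 cell stood at exactly 2 UMIs, and 13 and 14 cells that met the other limits had 1 UMI. Fscn1 reached 1432 and 1140 CPM and had a UMI in 109 of 126 and 102 of 117 cells. The Fscn1 and Ccl22 limit was met exactly by 4 and 6 cells, while 5 and 6 cells had 1 UMI of the pair and 27 and 32 had none. Those last cells had a median of 2 and 3 UMIs of Tmem123, a gene of the maturation list that the rule does not use. For comparison with free RNA, Ccr7 had a UMI in 1.92% of 1354 and 2.16% of 1433 macrophages with at least 20 C1q UMIs, at median depths of 19667 and 21739 UMIs.

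The label was checked against marker genes. Of the pan-dendritic genes, Cst3 stood at 8424 and 7073 CPM, Zbtb46, a transcription factor of conventional dendritic cells, at 297.1 and 312.8, and Flt3, their growth factor receptor, at 439.8 and 499.0. Itgax (CD11c) stood at 34.8 and 49.3 CPM, with a UMI in 31 and 34 cells. Ccl17, the remaining marker of the label, was found in only 17 of 126 and 19 of 117 cells, so most cells of the class carried no Ccl17 UMI. Of the markers of other cells, Cd79a of B cells and Ly6g of neutrophils were at 0 in both libraries, and Trac of T cells had 1 UMI in Gel100 and none in Gel50_CS50. Other markers of these lists were present. The 6 B cell markers summed to 29 and 33 UMIs. The 7 neutrophil markers summed to 67 UMIs in Gel100 and 172 in Gel50_CS50, 78 of the latter in 1 cell. The rule itself limits Cd3, Siglech, C1q, S100a8 and S100a9, so low sums of the lists that hold them are in part fixed by it. The 12 macrophage markers were all present and summed to 1090 and 3553 UMIs. The 12 T and NK cell markers summed to 93 UMIs in Gel100, 38 of them in 1 cell, and to 27 in Gel50_CS50. Cd207 of Langerhans cells was at 0 in Gel100, and the 4 Langerhans markers summed to 12 and 55 UMIs. All 7 markers of mast cells and basophils were at 0 in Gel50_CS50, and they gave 3 UMIs in Gel100. The 7 plasmacytoid markers summed to 2041 and 1608 UMIs with none at 0, most of them from Bst2 (538.5 and 309.7 CPM) and Tcf4 (440.3 and 319.5 CPM), which other cells also express.

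In Gel50_CS50, 4 members stood apart from all others. They held 65615 to 84188 UMIs, and 2.37% to 6.33% of these came from 7 stromal marker genes (Col1a1, Col1a2, Col3a1, Dcn, Lum, Postn and Sparc). The next highest cell had 0.134%, and the highest Gel100 cell had 0.0661%. Scrublet, which scores cells for likeness to simulated pairs, called 2 of the 4 as doublets. Their Ccr7 ranged from 2 to 99 UMIs, and together they gave 307162 UMIs, or 12.1% of the Gel50_CS50 members' total. The rule has no limit on stromal genes, so the cells are members. Every ratio between the libraries was also computed without them, and the value without them is given for each list and gene named below whose call it changes.

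**Figure D1:**
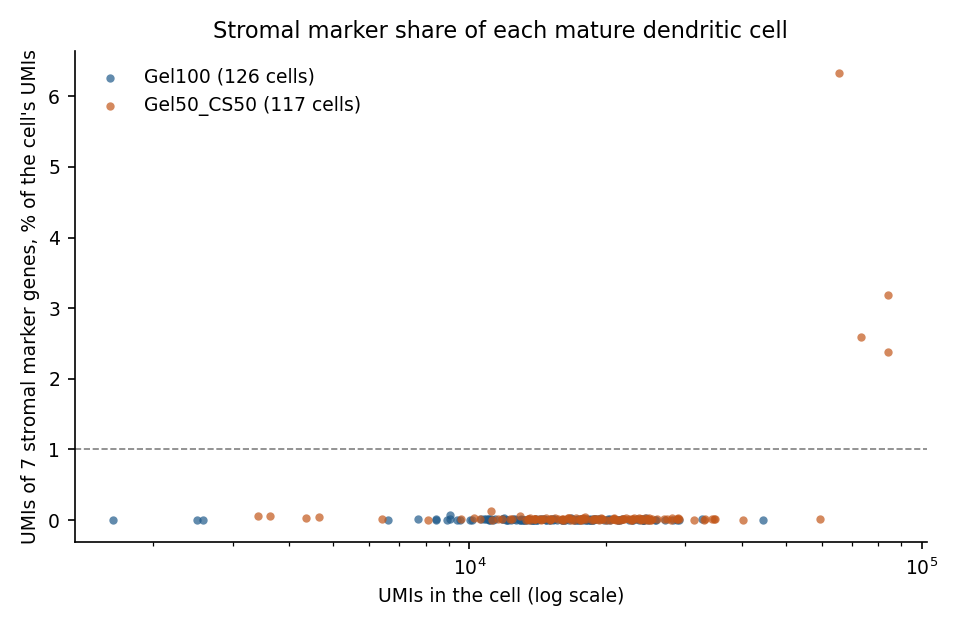
UMIs per mature cell (x axis, log scale) against the share of the cell's UMIs from 7 stromal marker genes (y axis, %), 1 point per cell, coloured by library, with the dashed line at 1%. The 4 points above the line are Gel50_CS50 cells of 65615 to 84188 UMIs, and all other cells lie at or below 0.134%.

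To read the mature program, mature cells were set against the Ccr7-negative class within each library. A gene was called when its ratio lay beyond 2-fold in the same direction in both libraries with both intervals wholly beyond 2-fold. Mature cells had higher levels of most migration and maturation genes, of Ccl5, Il12b, Il2ra and Il15ra, and lower levels of genes of the cDC1 list and of part of the class II loading machinery. Of 23 migration and maturation genes measured (a mean of at least 20 CPM, Ccr7 and Fscn1 left out), 19 were called higher and 1 lower, and their median log2 ratios were 3.70 in Gel100 and 2.65 in Gel50_CS50. Over all 5628 genes, 7.84% were called higher and 6.29% lower, with median log2 ratios of −0.08 and −0.16. Without the 4 stromal-marker cells 20 were called higher and 1 lower, against 8.42% and 7.02% of all genes, and the medians were 3.82 and 3.84. Against the cDC2 side of the comparison class alone, 15 of 23 were called higher and none lower, with medians of 3.13 and 2.90. Over all genes 5.72% were called higher and 5.85% lower there. That list was built from genes known to mark such cells, so its direction is not independent support for the label.

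Mreg (melanoregulin) was at 1107 and 873.8 CPM in mature cells against 3.7 and 7.1 in the comparison class, with log2 ratios of 8.23 and 6.95. Cacnb3, a calcium channel subunit, was at 556.4 and 435.5 CPM against 7.4 and 4.1. Samsn1, a signalling adaptor, was at 2469 and 2457 CPM with log2 ratios of 3.70 and 3.81, and Tbc1d4, a Rab GTPase activator, at 2291 and 2141 with 2.56 and 2.65. Slco5a1, a transporter of the solute carrier family, had no UMI in the Gel100 comparison class, which gives a log2 ratio of at least 7.27 there, and 3 UMIs in Gel50_CS50 (log2 ratio 7.15, 5.59 to 9.43). Tmsb10, a small actin-binding peptide, was the list's only gene called lower, at −1.40 and −1.29. The direction of each of these genes was the same in both libraries.

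Against the cDC2 side alone, 3 of 5 T cell attracting chemokines were called higher and 1 lower. In the main comparison 3 of the 5 were called higher and none lower. Among them, Ccl5, which attracts T cells, stood at 5669 CPM in 118 of 126 Gel100 cells and 3268 CPM in 94 of 117 Gel50_CS50 cells, against 84.8 and 56.3 CPM in the comparison class, which is 66.9-fold and 58.1-fold higher. Macrophages held Ccl5 at 770.1 and 284.4 CPM. Cxcl16, the ligand of Cxcr6, was also called higher (log2 2.21 and 1.65), whereas Cxcl9 and Cxcl10 were not called. Il12b, the p40 subunit shared by interleukin 12 and interleukin 23, led the genes ranked by the smaller ratio of the libraries, with log2 ratios of 11.41 (8.93 to 16.71) and 10.29 (8.75 to 12.57) on 1 and 3 UMIs in the comparison class. Its partners were scarce: Il12a stood at 2.9 CPM in 1 Gel100 cell and at 0 in Gel50_CS50, and Il23a at 6.8 and 4.7 CPM in 1 and 7 cells. Ccl19, a ligand of Ccr7 itself, had 1 UMI in 1 Gel100 cell and none in Gel50_CS50.

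Of 9 cytokine and cytokine receptor genes that act on lymphocytes 5 were called higher and none lower. Il2ra (CD25) was at 527.9 and 394.5 CPM with log2 ratios of 6.16 and 5.05, and Il15ra, which presents interleukin 15 to lymphocytes, had 4.70 and 4.04. Of 8 co-stimulatory genes 3 were called higher: Cd40 (2.43 and 2.23), Cd80 (3.14 and 2.26) and Tnfsf4 (OX40 ligand, 6.95 and 8.45, with 1 UMI in each comparison class and intervals of 4.43 to 12.27 and 5.96 to 13.76). Cd86, the other classical B7 ligand, was at 1195 and 1247 CPM with log2 ratios of only 0.29 and 0.58 and was not called. Against the cDC2 side alone, 5 of the 9 cytokine genes and 2 of the 8 co-stimulatory genes were called higher. For the regulatory and checkpoint list this comparison gave 5 higher and 2 lower of 12. In the main comparison, of 11 regulatory and checkpoint genes 7 were called higher and 1, Lgals9, lower. Cd274 had a UMI in 123 of 126 and 113 of 117 cells (927.1 and 856.0 CPM, log2 2.62 and 1.93), against 79.1% and 62.7% of macrophages. Its level was not particular to mature cells. Neutrophils with at least 5% of UMIs from S100a8 and S100a9 held it at 758.6 and 856.0 CPM, at median depths of 4459.5 and 4565 UMIs. Cd200 (4.16 and 4.51), Il4i1, an amino acid oxidase (5.61 and 5.87), and Socs2, a brake on cytokine receptors (7.23 and 5.24), were also in the regulatory list. Il10 and Ido1 were at or below 1 CPM in both libraries.

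The NF-kB pathway, which drives dendritic cell maturation, had 6 of 20 genes called higher and none lower against the cDC2 side alone. In the main comparison it had 10 of 20 genes called higher and none lower. Relb (893.7 and 772.4 CPM, log2 2.77 and 2.45) and the kinase Map3k14 (2.20 and 1.72), genes of its non-canonical arm, were among them. Nfkb2, also of that arm, had 1.44 and 1.18 and was not called. The ubiquitin ligase Birc2 was called higher too (4.06 and 3.01). The 3 Bcl2a1 genes, survival factors of the same pathway, had log2 ratios of 1.34 to 2.66, but they are near-identical copies and how their shared reads were counted is not stated.

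Class II genes had median log2 ratios of −0.66 in Gel100 and −0.65 in Gel50_CS50, against −0.08 and −0.16 over all genes. Most of them were not called. H2-Aa was at 4789 and 4171 CPM in mature cells against 7178 and 6567 in the comparison class, Cd74 (invariant chain) at 7003 and 6797 against 10620 and 10416, and neither was called. Of 12 class II genes 3 were called lower: March1, the ubiquitin ligase that removes class II from the surface (21.8 and 20.1 CPM against 452 and 418, log2 −4.38 in both), and H2-DMa and H2-DMb1, which load peptide (−2.14 and −1.83, −2.12 and −2.16). Genes of the cDC1 list were lower in 9 of 11, among them Wdfy4, needed for cross-presentation (−4.76 and −4.48), and Naaa (−4.74 and −4.49). Hepacam2 (−6.85 and −5.09) led the lower genes. The comparison class was chosen partly by cDC1 genes and holds more cDC1-side cells in Gel100. Against the cDC2 side alone, 3 of 8 cDC1 genes were called lower and 1 higher, beside 5.85% and 5.72% of all genes, and Itgae (−5.17 and −4.34 in the main comparison) turned to a higher level, with 0.94 as the smaller log2 ratio. Of 5 cell cycle genes 3 were called lower, 2 of 4 without the stromal-marker cells and none of 3 against the cDC2 side. Top2a, a topoisomerase of dividing cells, stood at 16.9 and 6.7 CPM (−3.07 and −4.01).

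**Figure D2:**
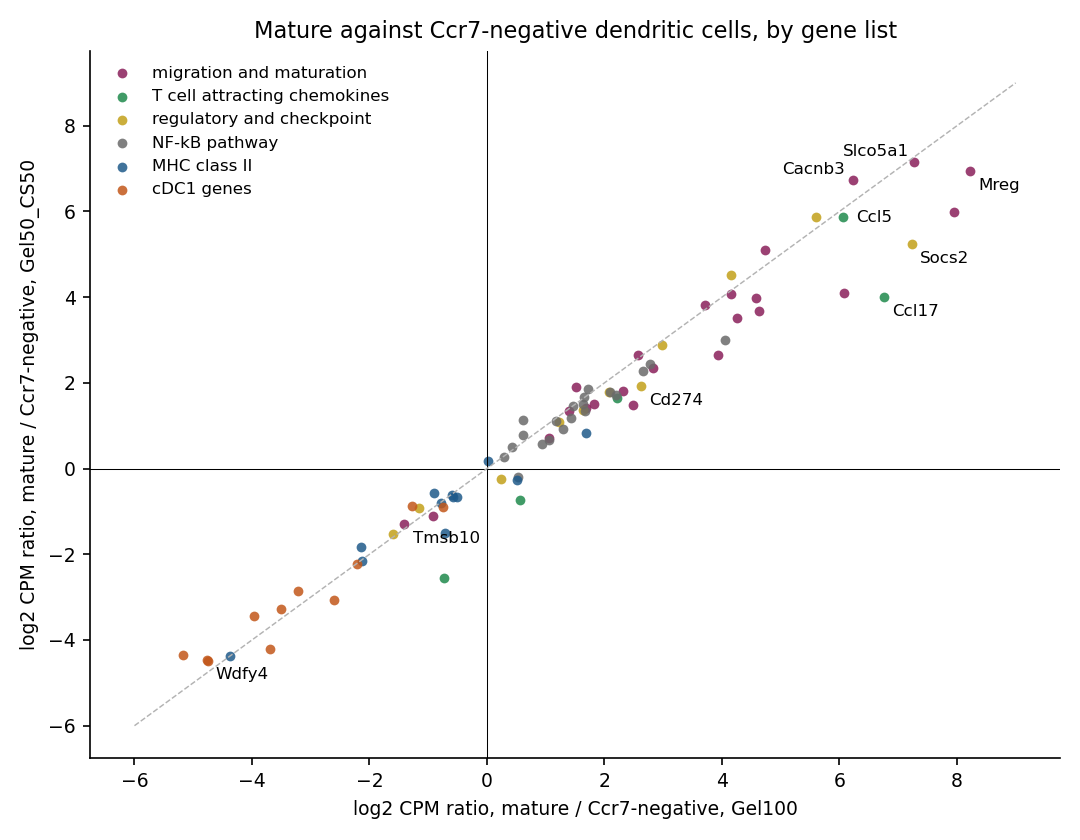
Log2 CPM ratio of mature over Ccr7-negative conventional dendritic cells in Gel100 (x axis) and Gel50_CS50 (y axis), 1 point per measured gene of 6 lists, with the rule's genes left out and the dashed line at equal ratios. Migration and maturation genes lie at the upper right, up to Mreg at 8.23 and 6.95, and cDC1 genes at the lower left, and the Gel100 values of Slco5a1 and Ccl17 are lower bounds because the comparison class had no UMI of them.

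The scaffolds were then compared within the mature cells, as the log2 ratio of Gel50_CS50 over Gel100. A gene was called when its whole interval lay beyond 1.5-fold. The Gel50_CS50 cells had lower levels of interferon-stimulated genes, MHC class I genes, Ccl5, Il15 and Irf8. Neither Il15 nor Irf8 was called after thinning to 5000 UMIs. Higher levels were found for Ccl17, the neutrophil-attracting chemokines Cxcl1 and Cxcl2 and the co-stimulatory ligand Tnfsf9. Tnfsf4 was also called higher, with most of its Gel50_CS50 UMIs in a single cell. Of 5756 genes measured, 4.67% were called higher and 3.25% lower, and 2.02% and 3.04% of 5551 without the 4 stromal-marker cells. The median log2 ratio of all genes was −0.03. The maturation program itself differed little: of 23 migration and maturation genes none was called higher and 2 lower (Tmsb10 at −0.84 and Zmynd15 at −0.79, the latter at −0.61 and not called without the 4 cells), and none of 20 NF-kB genes or 12 regulatory genes was called.

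Interferon-stimulated genes, which many cells switch on when interferon binds its receptor, were lower in Gel50_CS50. Of 17 measured, 16 were called lower in Gel50_CS50 and none higher, with a median log2 ratio of −1.45. Without the 4 stromal-marker cells 14 were called lower, the median was −1.44 and all 17 ratios were negative. Isg15, a ubiquitin-like protein, had a median of 9 and a maximum of 137 UMIs per cell in Gel100, with a UMI in 110 of 126 cells, and a median of 5 and a maximum of 83 in Gel50_CS50, in 92 of 117 cells. Its levels were 1222 and 465.5 CPM (log2 −1.39, −1.49 to −1.29). The cells of the libraries overlapped widely, and no single cell held more than 7.03% of its library's Isg15 UMIs. Rsad2 (viperin, an antiviral enzyme) stood at 272.4 and 70.2 CPM (−1.96, −2.21 to −1.71), in 76 and 48 cells. Irf7, which amplifies interferon production, stood at 560.3 and 167.3 CPM (−1.74), and Ifit2 at 232.2 and 62.7 (−1.89, in 68 and 24 cells).

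The promoters of 2 of these genes and of B2m, the light chain of MHC class I, show the element through which interferon-activated factors bind. The 250 bases before the RefSeq start are printed for the GRCm38.p6 build in the gene's direction, with matches on either strand to a form of the interferon-stimulated response element (GAAA, any 2 bases, GAAA) in capitals. In B2m the match to a form of the NF-kB site (GGG, any 2 bases, TTTCC, either strand) is also in capitals. Isg15 lies on chromosome 4 and its window is chr4:156200819-156201068, minus strand. Rsad2 has chr12:26456453-26456702, minus strand, and B2m has chr2:122147437-122147686, plus strand.
Isg15: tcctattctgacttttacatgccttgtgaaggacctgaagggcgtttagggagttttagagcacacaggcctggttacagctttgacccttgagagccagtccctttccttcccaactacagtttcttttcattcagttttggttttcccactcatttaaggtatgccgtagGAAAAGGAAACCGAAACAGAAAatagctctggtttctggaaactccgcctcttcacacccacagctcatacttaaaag
Rsad2: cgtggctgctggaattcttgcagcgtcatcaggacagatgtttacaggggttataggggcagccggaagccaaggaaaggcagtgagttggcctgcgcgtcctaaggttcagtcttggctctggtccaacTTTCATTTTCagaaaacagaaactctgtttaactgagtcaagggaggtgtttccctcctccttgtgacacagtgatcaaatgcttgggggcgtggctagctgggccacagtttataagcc
B2m: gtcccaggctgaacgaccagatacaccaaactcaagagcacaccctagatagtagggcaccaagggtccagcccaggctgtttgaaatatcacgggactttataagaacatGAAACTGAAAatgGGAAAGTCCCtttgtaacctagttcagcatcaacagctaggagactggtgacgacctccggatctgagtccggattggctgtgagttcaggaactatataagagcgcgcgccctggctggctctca
Isg15 held 3 overlapping matches just upstream of the start, and Rsad2 and B2m 1 each. The window of Tap1 and the first listed of 2 Ifit2 windows, also looked at and not printed, held no match to the interferon element. Where a gene had more than 1 window, only the first listed was used, so other starts were not covered. Of 16 interferon-list genes with a window, 7 (43.75%) held the interferon element, against 3.04% of windows of the same length in 27025 genes. The interferon element was also in 2 of 13 MHC class I genes, 2 of 5 T cell attracting chemokines and 2 of 20 migration and maturation genes. It was in 0 of 17 NF-kB pathway genes. The NF-kB form was in 2 of 13 MHC class I, 5 of 17 NF-kB pathway and 1 of 16 interferon-list genes, against 1.40% of all genes. It was in none of the T cell attracting chemokine or migration and maturation windows. A match is a description of these letters and not a measured binding site.

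MHC class I genes differed in the same direction. All 15 measured genes had a negative log2 ratio, 8 were called lower and none higher, with a median of −0.75. B2m ranged from 5 to 192 UMIs per Gel100 cell with a median of 65, and from 1 to 111 with a median of 47 in Gel50_CS50, and had a UMI in every cell. Its levels were 3912 and 2275 CPM (−0.78, −0.83 to −0.73). The heavy chain H2-D1 stood at 4496 and 2664 CPM (−0.75), H2-T23 at 397.7 and 193.3 (−1.04), and Psmb9, a subunit of the immunoproteasome, at 423.4 and 222.1 (−0.93). Without the 4 stromal-marker cells the 15 ratios were again all negative with a median of −0.64, and 4 genes (B2m, H2-D1, H2-T23 and Psmb9) were called. After thinning to 5000 UMIs 1 of 15 was called. Of 12 MHC class II genes none was called, 11 had a negative ratio and the median was −0.21. The difference between the lists was not tested. The mm10 genome comes from another inbred strain than Balb/c, and how reads of the variable H2 genes were counted was not tested.

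In the Ccr7-negative dendritic cells, compared between the libraries by the same limits, 6 of 18 interferon-stimulated genes were called lower with a median log2 ratio of −0.52, and none of 15 MHC class I genes with a median of −0.40. Over all 6043 genes 3.31% were called higher and 1.32% lower there, with a median of 0.04. The difference between the classes was not tested, and the cDC1 and cDC2 sides of the comparison class were mixed differently in the libraries (85 to 24 and 58 to 50).

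By single gene, Ly6c2 had the lowest ratio of all measured genes, 222.6 against 13.0 CPM (−4.10, −4.65 to −3.59), with a UMI in 67 and 14 cells. Slfn1 (205.2 and 30.0 CPM, −2.77), Slfn4 (−2.21), Oas3 (−2.14), Ifit3 (−2.11), Gpr141 (−2.10) and Trim30d (−1.84) followed. The Ly6, Slfn, Ifit and Trim30 genes have close copies, so their single levels are uncertain. Of 9 cytokine and cytokine receptor genes 2 were called lower and none higher, and none in either direction after thinning. They were Il15 and Il6. Il15, which sustains NK cells and memory CD8 T cells, stood at 296.6 and 141.2 CPM (−1.07, −1.26 to −0.88) in 100 and 71 cells, and Il6 at 69.2 and 30.0 (−1.21) in 30 and 16 cells. Of 8 cDC1 genes 2 were called lower and none higher, beside 3.25% of all genes called lower. Irf8, a factor of the cDC1 lineage, stood at 741.3 and 394.1 CPM (−0.91), and Cadm1, a cDC1 adhesion molecule, at 100.6 and 52.5 (−0.94). After thinning none of the 8 cDC1 genes was called, and their median log2 ratio was −0.08. Ccl5 was called lower at −0.79 (−0.84 to −0.75), but at −0.61 without the 4 stromal-marker cells its interval of −0.65 to −0.57 crossed the limit. Its median was 42 UMIs per cell in Gel100, up to 767, and 18 in Gel50_CS50, up to 514. Cxcl10, a ligand of Cxcr3, stood at 71.1 and 28.01 CPM (−1.34), and Cxcl9, another, at 114.7 and 31.2 (−1.88) in only 17 and 12 cells.

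**Figure D3:**
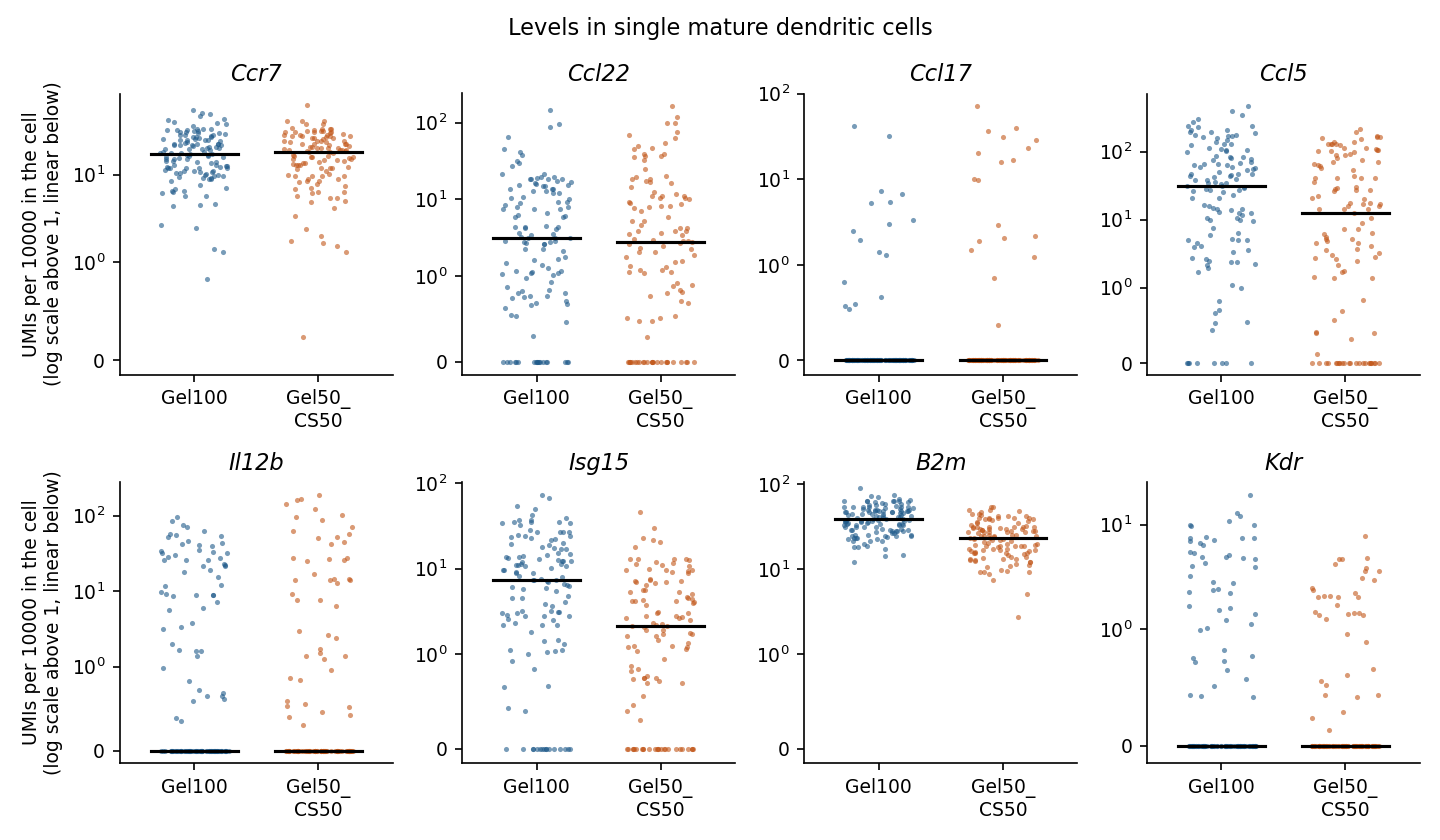
UMIs per 10000 of the cell's total (y axis, log scale above 1 and linear below) for 8 genes in each mature cell, with 126 Gel100 and 117 Gel50_CS50 cells and a black line at the median. B2m and Isg15 lie lower in Gel50_CS50 with wide overlap, and Ccl17 is at 0 in most cells of both libraries.

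On the higher side, the 10 highest ratios above a mean level of 50 CPM were mostly matrix and other mesenchymal genes: Col8a1, Lum, Prrx1, Dcn, Rarres2, Col5a2, Fstl1, Meg3 and Gpc6 had log2 ratios of at least 6.79, and in these 9 genes 95.6% to 99.3% of the UMIs of all members lay in the 4 stromal-marker cells. Without those cells none of the 9 was called. The remaining gene, Mmp12, an elastase of macrophages, owed 96.3% of its Gel50_CS50 UMIs to 1 other cell. Of the 269 genes called higher, 95 kept their call without the 4 cells, and of the 187 called lower, 149 did.

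Chemokines that attract granulocytes and T helper 2 and regulatory T cells were among the genes that kept it. Cxcl1, a neutrophil attractant, stood at 42.6 and 215.8 CPM (log2 2.34, 2.01 to 2.68), with a UMI in 22 of 126 and 48 of 117 cells, and was 2.41 without the 4 cells. Cxcl2 stood at 230.8 and 696.7 CPM (1.59, and 1.69 without), in 71 and 80 cells. Cxcl3 (2.69) rested on 4 and 12 cells. Of 9 inflammatory chemokines 5 were called higher and none lower, and 4 of 7 without the 4 cells, where Ccl2 turned from 1.65 to −0.44. Ccl17, a ligand of Ccr4, stood at 120.0 and 293.1 CPM (1.29, 1.079 to 1.502), or 2.44-fold, and at 1.47 without the 4 cells. Its top 3 cells held 75.4% of its UMIs in Gel100 and 47.2% in Gel50_CS50, so the level of the class rests on few cells. Ccl22, the other ligand of Ccr4 and a gene of the rule, stood at 949.8 and 1428 CPM (0.59) in 107 and 92 cells, and is given as a description. Ccr4 itself had no UMI in the mature cells and was found in 16.5% of 473 and 11.97% of 401 cells with at least 3 Cd3 UMIs.

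Of the co-stimulatory list 2 of 8 genes were called higher, both of the tumour necrosis factor family. After thinning to 5000 UMIs 1 of 8 was called. Tnfsf9 (4-1BB ligand) stood at 98.2 and 189.0 CPM (0.94, 0.70 to 1.19) in 54 and 58 cells. Tnfsf4 stood at 45.5 and 130.2 CPM (1.52, 1.18 to 1.86) in 25 and 32 cells, with 58.2% of the Gel50_CS50 UMIs in 1 cell. Il12b had a higher summed level, 1003 and 1404 CPM (0.49, 0.41 to 0.56), that was not called, in 61 of 126 and 50 of 117 cells. It was found in 0.665% and 0.977% of macrophages. The cDC2 genes Mgl2 (11.6 and 41.8 CPM, 1.85) and Cd209a (1.9 and 46.9, 4.60, in 4 and 10 cells, with 56.3% of the Gel50_CS50 UMIs in 1 cell) were called higher, and Ltb lower (−1.28). Other genes with high ratios once the 4 cells were left out were Fn1 (fibronectin, 2.94), Ifitm1 (2.21), Cd14 (2.03), Abca1 (1.93), Acod1 (1.73), Mtss1 (1.72) and Peli2 (1.70).

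Macrophage markers moved with these genes. Of 5 markers measured 4 were called higher (Lyz2 at 1.61, Apoe at 1.69, or 0.37 and not called without the 4 stromal-marker cells, Cd14 at 1.94 and Csf1r at 1.35) and Fcgr1 lower (−1.45). The 12 macrophage markers gave 1 to 83 UMIs per Gel100 cell with a median of 6, and 1 to 745 with a median of 8 in Gel50_CS50. Cells with at least 0.5% of their UMIs from the stromal, macrophage, neutrophil, T and NK, B or mast cell list numbered 1 in Gel100 and 8 in Gel50_CS50, the 4 stromal-marker cells included. Without these mixed cells 2 of 4 macrophage markers were called higher, Apoe was at 0.06, Acod1 at 1.12, Cxcl1 at 2.22, Ccl17 at 1.54, and 14 of 17 interferon-stimulated genes were called lower, beside 1.86% of all genes called higher and 3.13% lower. The part of free RNA and of joined cells in the remaining differences was not tested.

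**Figure D4:**
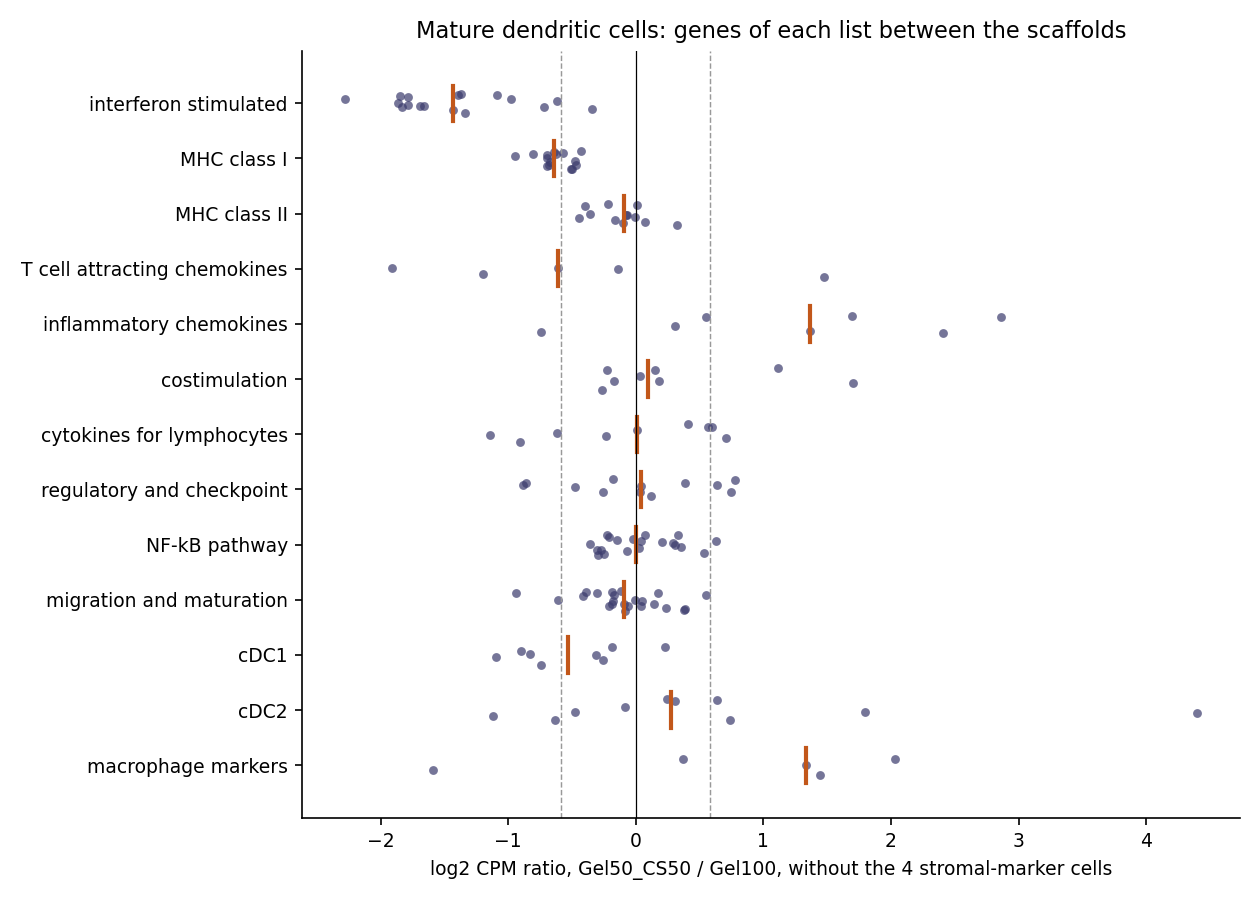
Log2 CPM ratio of Gel50_CS50 over Gel100 in mature cells without the 4 stromal-marker cells (x axis), 1 point per measured gene in each list, with the orange bar at the list's median and dashed lines at 1.5-fold. All interferon-stimulated (median −1.44) and MHC class I (−0.64) genes lie below 0, while NF-kB and migration genes centre near 0.

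The mature cells also varied among themselves. To show which genes went together, the cells were thinned to 5000 UMIs each, which left 123 Gel100 and 109 Gel50_CS50 cells without the 4 stromal-marker cells, and split by whether 1 gene was found. The 3 splitting genes and the genes named with them were chosen after their values had been seen, and cells of a library share their pool, so these are descriptions of the pooled cells. A gene is counted where its whole interval lay beyond 1.5-fold in the same direction in both libraries.

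Kdr, the VEGF receptor 2 known mainly from endothelium, had a UMI in 51 of 126 and 38 of 117 mature cells before thinning. It was found in 39.4% and 32.4% of Ccr7-negative dendritic cells and in 47.4% and 32.7% of macrophages. In mature cells it stood at 206.1 and 66.3 CPM (−1.64 between the libraries). It was also lower in Gel50_CS50 in Ccr7-negative dendritic cells (52.0 and 33.2 CPM) and in macrophages (64.5 and 30.1 CPM). Of the 5 endothelial markers, Kdr included, only Egfl7 in Gel100 and only Emcn in Gel50_CS50 were at 0. The 5 summed to 441 and 187 UMIs, 426 and 168 of them from Kdr. The 35 and 22 thinned cells with Kdr differed from the 88 and 87 without in many genes. They had more H2-Aa, at 6937 against 3061 CPM in Gel100 and 7564 against 3457 in Gel50_CS50, Ms4a4c at 908.6 against 165.9 and 400 against 71.3, and Isg15 at 1949 against 922.7 and 963.6 against 333.3. Genes known from monocytes and macrophages were higher too, with Cybb at 508.6 against 118.2 and 745.5 against 140.2, Adgre4 at 85.7 against 18.2 and 200 against 41.4, and Axl at 240 against 50 and 109.1 against 25.3. Their part in the split was not tested. Fscn1, a gene of the rule, stood at 731.4 against 1893 and 600 against 1600, and Ccl5 at 3874 against 7341 and 2873 against 4457. Cells with Kdr had less Syn3 (177.1 against 843.2 and 36.4 against 963.2), Gramd1b and Slc4a8. Outside the rule's genes 63 were higher and 38 lower in all. Isg15 was thus lower in Gel50_CS50 among cells with Kdr and among cells without it.

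The split by Il12b ran in part opposite to that by Kdr. Ms4a4c, higher with Kdr, was lower with Il12b (148.1 against 556.5 CPM in Gel100, 59.5 against 177.8 in Gel50_CS50). Il12b stood at 731.4 against 1364 and 1209 against 1503 in cells with and without Kdr. Kdr went 85.2 against 258.0 in Gel100 cells with and without Il12b, but 81.1 against 66.7 in Gel50_CS50. The 54 and 37 cells with an Il12b UMI had more Irf8 (1144 against 547.8 CPM in Gel100, 870.3 against 363.9 in Gel50_CS50), Ly75 (DEC-205, an antigen receptor, 925.9 against 455.1 and 1346 against 705.6), Serpinb9, an inhibitor of granzyme B, and Bcl2l1, a survival factor. They had less H2-Ab1 (1156 against 4046 and 1627 against 3381), Ciita, the master regulator of class II (33.3 against 171.0 and 32.4 against 127.8), and Bach2. Outside the rule's genes 6 genes were higher and 7 lower. Isg15 went 1193 against 1232 and 621.6 against 377.8, so it was not among the counted genes. Ccl5 went 9700 against 3736 CPM in Gel100 but 4346 against 4031 in Gel50_CS50.

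Ccl17 and Ccl22 were found together. The 15 cells with Ccl17 in each library had 3253 against 640.7 CPM of Ccl22 in Gel100 and 6333 against 619.1 in Gel50_CS50, a description because Ccl22 is a gene of the rule. Ccl3, Itgax and Vim were also higher, and Flt3 (186.7 against 507.4 and 226.7 against 674.5), Mreg (506.7 against 1311 and 480 against 1079) and Syn3 lower. Outside the rule's genes 3 genes were higher and 9 lower in all. In the cells without Ccl17, the Ccl22 levels of the libraries were thus close to each other, 640.7 and 619.1 CPM.

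**Figure D5:**
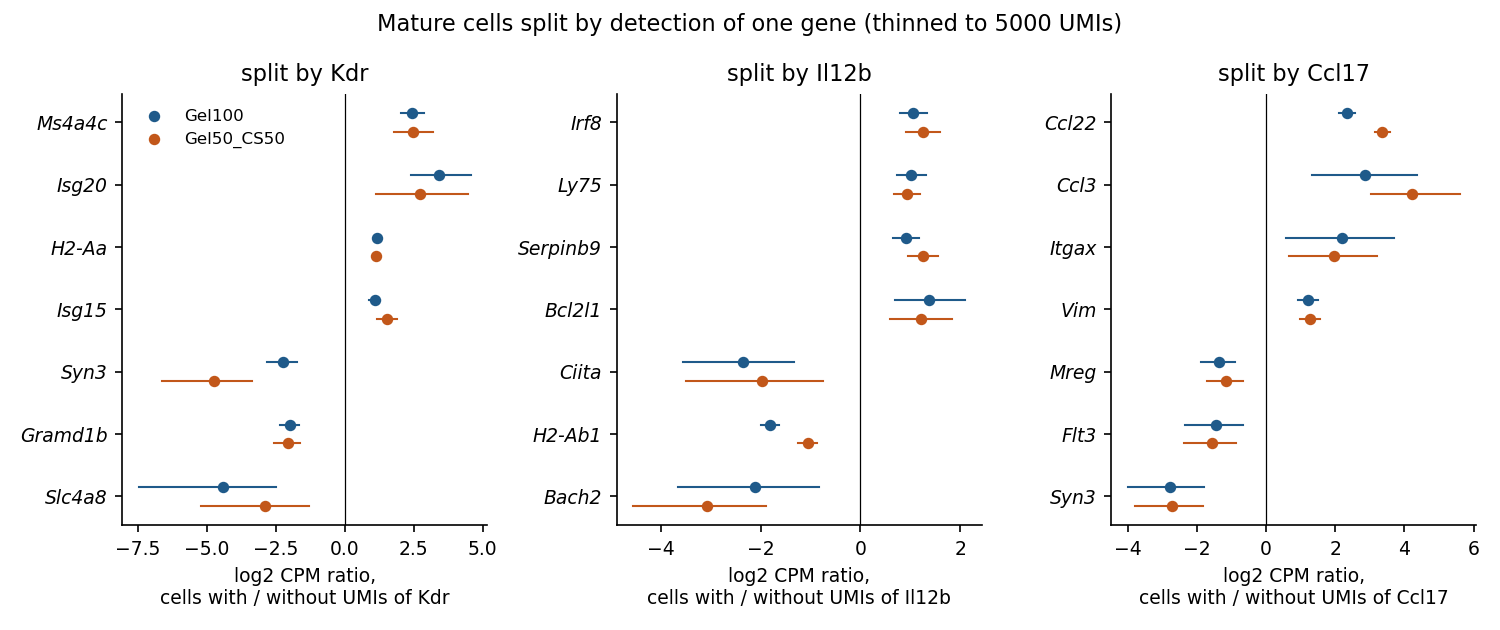
Log2 CPM ratio between mature cells with and without UMIs of Kdr, Il12b or Ccl17 (x axis) for genes named by the split, in Gel100 (blue) and Gel50_CS50 (orange), with 95% intervals for counting error, in cells thinned to 5000 UMIs. In each panel the points of both libraries lie on the same side of 0, which the choice of these genes fixes.

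Traces of origin were sought after thinning with part of the genes of each list. Those of cDC1 were Xcr1, Clec9a, Cadm1, Tlr3, Wdfy4 and Naaa. Those of cDC2 were Cd209a, Sirpa, Mgl2, Clec10a and Cd209d. Irf8 and the other genes of the lists were not used. These cDC1 genes alone were found in 17 of 123 Gel100 cells (13.8%, 8.26 to 21.2) and 14 of 113 Gel50_CS50 cells (12.4%, 6.94 to 19.9). The cDC2 genes alone were found in 22 (17.9%) and 27 cells (23.9%), and genes of both sides in 13 and 10. None of these genes was found in 71 (57.7%, 48.5 to 66.6) and 62 cells (54.9%, 45.2 to 64.2). The intervals of the libraries overlap for each class, and the difference in these traces between the scaffolds was not tested. The 113 Gel50_CS50 cells here include the 4 stromal-marker cells.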

How the data were processed

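RNA of pooled cells was measured in 2 droplet libraries. The deposited values are raw UMI counts per gene and barcode, made with Cell Ranger (version 6.0.2, per the file headers). The genome build was mm10, per the submitters' processing notes. The sources used here do not give the annotation release. The files hold 7845 (Gel100) and 7515 (Gel50_CS50) barcodes with 108847835 and 150311308 UMIs over 32285 genes.

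From these counts, cells with at least 1000 UMIs and under 20% mitochondrial UMIs were kept (6899 and 7294, with median depths of 14206 and 16954 UMIs). The members and gene lists were chosen with earlier results of these data known. UMIs were summed per class and library and scaled to CPM. Ratios have exact conditional binomial intervals, which cover counting error only, and a class at 0 was set to a floor of 3 counts. A gene counted as measured from a mean level of 20 CPM, and genes of the selection rules were left out of counts of calls. Named genes were list members and the 10 highest and 10 lowest ratios among called genes above a mean level of 50 CPM, leaving out mitochondrial, ribosomal and unnamed gene models. No p-value was computed, because each scaffold is 1 library. Scrublet (scanpy 1.11.5, expected rate 0.06) called 178 and 177 doublets, which were kept in the main values and removed in an alternative. Code used Python 3.11.15, numpy 2.4.6, scipy 1.17.1 and pandas 2.3.3, and was tested on simulated counts. Promoter windows came from RefSeq (GRCm38.p6). Alternatives were thinning to 5000 UMIs, equal cell weights, other limits and scaling, and other comparison classes. Leaving out the 4 stromal-marker cells or the mixed cells was chosen after seeing the data. Some single genes are not reported here.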

Additional observations from a re-analysis of the deposited data

How the results depend on the processing

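No paired analysis was possible because each group is 1 library. The count of genes higher in Gel50_CS50 (269 in the main comparison) was 124 with each cell weighted equally, 92 after thinning to 5000 UMIs, 58 at a mean of at least 100 CPM, 112 without the stromal-marker cells and 103 without mixed cells. The count lower (187) was 94 after thinning and 88 at a mean of at least 100 CPM. For those counts the cause under equal weights was not tested, and thinning and the stricter filter leave fewer UMIs or genes to test. After thinning the mature share of dendritic cells was 56.4% in Gel100 and 60.1% in Gel50_CS50. The difference of Gel50_CS50 minus Gel100 was −1.62 points (−10.7 to 7.45) in the main setting and 3.78 (−6.80 to 14.2) after thinning. Both intervals span 0. Ccl2 turned to −0.44 without the stromal-marker cells and to −0.44 without mixed cells. Gpc6 then had 2 UMIs in each library, so its −0.11 and −0.046 reflect the library totals alone. Itgae turned to 0.94 against the cDC2 side. After thinning, 11 of 17 interferon-stimulated genes and 1 of 15 MHC class I genes were called lower, while their medians stayed negative. With 1 pool of 5 mice per scaffold, differences between mice, pools, captures and scaffolds cannot be told apart. Summed levels of genes found in few cells rest on those cells.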
